A study of Mus musculus with 17 samples.

Results

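SLR14 is a short stem-loop RNA made to activate RIG-I, the cytosolic sensor of viral RNA ends that is encoded by Ddx58. It is compared here with vehicle in mouse spleen, by RNA sequencing of whole tissue. The comparison takes 5 of the 17 libraries of the series, 3 from mice given SLR14 (SLR14-1, SLR14-2 and SLR14-3) and 2 from mice given vehicle (vehicle-1 and vehicle-2). A gene entered when it reached 1 CPM in at least 2 of these 5 libraries, which kept 13410 of 38340 named genes. Every mouse is labelled with the strain CB57BL/6NCrl, and the design text calls the control a jetPEI vehicle, jetPEI being a polyethylenimine carrier of nucleic acids. One injection text, written for the stem-loop RNAs, stands with every library. It gives 25 µg of RNA in 200 µl, complexed with in vivo-jetPEI at an N/P ratio of 8 and given intravenously. The time from injection to collection, the age and the sex of the mice are not stated, so the time behind each value is not known. Nothing states that the replicates are separate mice, so p-values measure spread between libraries, which may in part be technical. That spread was pooled within groups over all 17 libraries of the series. They include naive, SLR10 and poly(I:C) libraries and a group labelled pppNS. The other RNAs of the series that are set beside SLR14 at the end are SLR10, a stem-loop RNA with a shorter stem, and poly(I:C), a synthetic double-stranded RNA (3 libraries each).

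RIG-I binds double-stranded RNA that ends in a 5′ triphosphate and signals through the mitochondrial adaptor MAVS to IRF3, IRF7 and NF-kB. These factors switch on the genes of type I interferons, inflammatory cytokines and chemokines. Secreted interferon acts through its receptor on JAK kinases and STAT factors, which with IRF9 bind interferon-stimulated response elements. The spleen filters blood through red pulp rich in macrophages and stroma, and its white pulp holds B and T cell areas.

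Promoter sequences of 10 genes are printed as examples of response motifs next to the starts of genes that rose with SLR14. The windows hold the 150 bases before each annotated start (RefSeq, GRCm38.p6), read 5′ to 3′ on the strand of the gene. They were chosen because a match was found in them, so they are examples and not evidence of frequency. In the first 6, capitals mark the core of the interferon-stimulated response element (GAAA, any 2 bases, GAAA), on either strand, with overlapping matches joined. The windows are chr4:156200819-156200968 (minus strand) for Isg15, chr19:34640739-34640888 (plus) for Ifit1, chr12:26456453-26456602 (minus) for Rsad2, chr4:88841666-88841815 (plus) for Ifna4, chr3:142620513-142620662 (plus) for Gbp2 and chr11:48871421-48871570 (minus) for Irgm1.
Isg15: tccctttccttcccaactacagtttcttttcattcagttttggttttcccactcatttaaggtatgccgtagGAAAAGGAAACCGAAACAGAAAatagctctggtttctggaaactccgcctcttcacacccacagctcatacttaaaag
Ifit1: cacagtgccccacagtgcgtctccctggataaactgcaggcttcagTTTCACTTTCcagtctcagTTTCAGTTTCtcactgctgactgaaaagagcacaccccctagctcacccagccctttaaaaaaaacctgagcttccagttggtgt
Rsad2: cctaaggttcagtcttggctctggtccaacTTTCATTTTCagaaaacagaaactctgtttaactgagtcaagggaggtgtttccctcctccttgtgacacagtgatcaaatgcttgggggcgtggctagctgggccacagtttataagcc
Ifna4: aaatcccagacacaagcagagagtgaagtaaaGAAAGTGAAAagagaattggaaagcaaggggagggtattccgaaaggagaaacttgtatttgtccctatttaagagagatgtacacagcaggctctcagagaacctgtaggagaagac
Gbp2: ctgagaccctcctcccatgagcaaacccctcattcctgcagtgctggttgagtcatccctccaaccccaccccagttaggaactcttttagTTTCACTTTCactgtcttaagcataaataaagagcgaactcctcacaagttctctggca
Irgm1: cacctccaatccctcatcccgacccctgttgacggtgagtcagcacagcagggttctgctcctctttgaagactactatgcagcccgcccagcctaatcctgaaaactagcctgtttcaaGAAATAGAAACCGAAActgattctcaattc

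In the 4 inflammatory promoters, capitals mark the NF-kB consensus on either strand. The windows are chr4:88522795-88522944 (minus) for Ifnb1, chr5:30012964-30013113 (plus) for Il6, chr5:90891095-90891244 (plus) for Cxcl1 and chr5:92348890-92349039 (minus) for Cxcl10.
Ifnb1: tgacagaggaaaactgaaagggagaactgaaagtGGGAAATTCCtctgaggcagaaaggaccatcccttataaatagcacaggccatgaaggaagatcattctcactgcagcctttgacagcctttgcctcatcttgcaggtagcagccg
Il6: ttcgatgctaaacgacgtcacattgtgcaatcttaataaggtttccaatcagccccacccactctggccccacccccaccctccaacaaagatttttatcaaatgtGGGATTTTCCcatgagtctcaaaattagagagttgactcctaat
Cxcl1: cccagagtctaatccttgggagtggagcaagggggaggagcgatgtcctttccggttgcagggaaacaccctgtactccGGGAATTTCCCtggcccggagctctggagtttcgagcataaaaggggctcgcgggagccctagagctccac
Cxcl10: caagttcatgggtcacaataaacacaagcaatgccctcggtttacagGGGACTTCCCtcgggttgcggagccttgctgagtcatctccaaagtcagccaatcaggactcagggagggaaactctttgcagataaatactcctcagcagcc

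The response element core was found 3 times in the Isg15 window, 2 times each in those of Ifit1 and Irgm1, and 1 time in each of the other 3. Of all 27025 such windows, 433 (1.602%) held it, and 611 (2.261%) held the NF-kB consensus. A match describes letters in a window and not binding. Only 72.86% of the tested genes, and 71.29% of those at least 4-fold higher with SLR14, had a window, so shares among responsive genes were not compared.

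Each of the 5 libraries held 26453585 to 37892456 reads. Of these, 37.5% to 40.4% with SLR14 and 31.1% and 31.9% in vehicle stood on table lines without a gene name. Reads in named genes numbered 15763475 to 23765273. Levels are the authors' CPM, reads divided by a normalised library size but not by gene length, so a level is compared between libraries and never between genes. A level of 3 reads, taken as the floor of detection, was 0.0596 to 0.129 CPM, which covers counting error only. Correlation of log2 levels across the 13410 genes, which are not independent replicates, was 0.9924 between SLR14-1 and SLR14-3 and 0.9909 between the vehicle libraries. The deposited scaling gave summed levels of named genes of 679328 to 747431 CPM with SLR14 against 471992 to 478148 CPM in vehicle. Scaling by the reads in named genes instead lowered the median log2 change of all genes by 0.53, and quantile scaling lowered it by 0.12. Directions below are those of the deposited scaling.

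SLR14-2 stood apart from the other SLR14 libraries, with correlations of 0.947 and 0.9446 to them. It lay at least 2-fold above both of them for 928 genes and 2-fold below both for 30, against 8 and 5 genes for SLR14-1 and 18 and 20 for SLR14-3. By any margin, 41.5% of all tested genes were highest and 40.9% lowest in SLR14-2 among the SLR14 libraries. All 29 tested erythroid genes, which encode haemoglobins, red cell membrane proteins and enzymes of haem synthesis, were higher in SLR14-2 than in either other SLR14 library. Their median was 4.28 above the mean of the other SLR14 libraries on the log2 scale. The anion exchanger gene Slc4a1 was at 49.1, 2132 and 56.4 CPM in SLR14-1, SLR14-2 and SLR14-3 and at 62 and 151 CPM in vehicle-1 and vehicle-2. The same order of libraries, SLR14-1, -2, -3 and vehicle-1, -2, holds wherever values are listed below. Rhag, a membrane protein gene of the Rh complex, was at 12.3, 444 and 13.4 CPM with SLR14 and at 4.34 and 9.63 CPM in vehicle. In both genes SLR14-2 lay far above the other SLR14 libraries and both vehicle libraries, and the other SLR14 libraries lay near the vehicle range. Over the whole series SLR14-2 was not alone. The erythroid list had a mean log2 level of 8.77 in SLR14-2, and of 3.44, 9.36 and 8.20 with poly(I:C). It stood at 6.60, 5.86 and 6.77 in naive spleens and at 4.54 and 5.31 in vehicle. All 24 mitosis genes (median 2.85) and all 24 DNA replication genes (median 1.89) were also above both other SLR14 libraries there.

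Other cell markers moved with that library. Among the SLR14 libraries, all 18 platelet genes were highest in SLR14-2 (median 0.53 above the other 2), as were 16 of 17 red pulp macrophage genes (median 0.55). All 26 T cell genes were lowest there (median -0.80), together with 20 of 23 B cell genes (median -0.43), beside 40.9% of all tested genes. All 6 tested genes of the adipocyte list, included to look for fat next to the spleen, were highest in SLR14-2 among the SLR14 libraries (median 2.31). Whether such fat was present was not tested. The fat-cell hormone gene Adipoq was at 0.0765, 5.33 and 0 CPM with SLR14 and at 0.105 and 2.11 CPM in vehicle, the high libraries being SLR14-2 and vehicle-2. Of 14 exocrine pancreas genes 5 had no read in any of the 5 libraries, and the whole list summed to 2.22 to 8.22 CPM. Tlx1, Spic and Cd79a, genes of splenic stroma, red pulp macrophages and B cells, were detected in all 5 libraries. In whole tissue, fewer cells of a type and less RNA per cell cannot be told apart. Of the 928 genes high in SLR14-2, 50 were called higher and 28 lower than vehicle, where 19.9% and 19.6% of all tested genes were. These 928 were picked for a wide spread within SLR14, which by itself makes calls fewer. Counts or medians without SLR14-2 are given below for the lists whose values it moved most. The part of the 928 genes in the results was not tested.

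**Figure D1:**
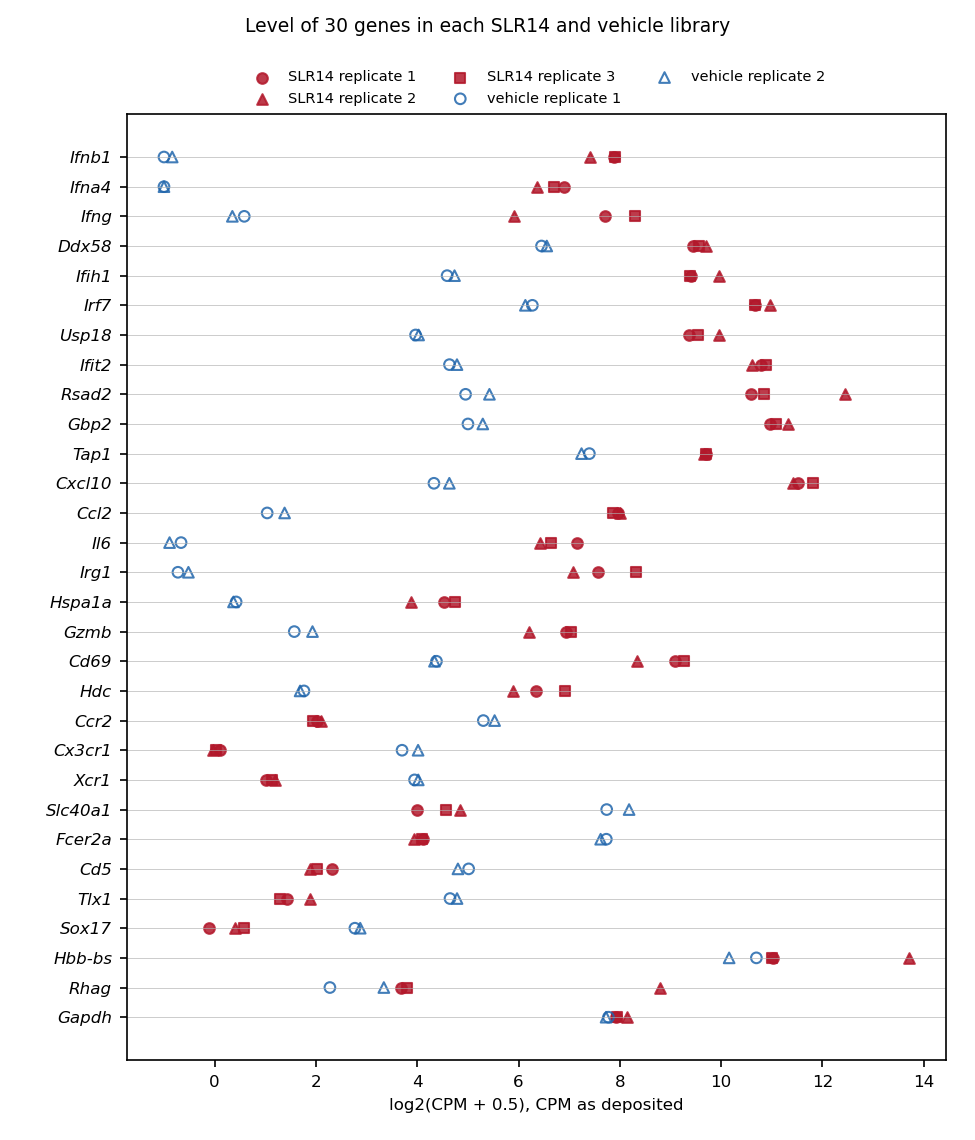
Level of 30 genes, as log2(CPM + 0.5), in each SLR14 library (filled red) and vehicle library (open blue), 1 point per library. Interferon, chemokine and cytokine genes lie far apart between the groups, Slc40a1 and Cx3cr1 lie lower with SLR14, and Rhag (12.3, 444 and 13.4 CPM with SLR14) lies high in SLR14-2 alone.

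Against vehicle, 5296 of 13410 genes (39.5%) passed an adjusted p of 0.05 in limma. Of these, 2669 (19.9%) were higher and 2627 (19.6%) lower with SLR14. With levels scaled by reads in named genes the split was 1199 higher and 5004 lower, and with quantile scaling 2219 higher and 2971 lower. On the log2(CPM + 0.5) scale 533 called genes were at least 4-fold higher and 245 at least 4-fold lower, and 118 were at least 16-fold higher and 0 at least 16-fold lower. The added 0.5 limits how far a gene with a low vehicle level can fall on that scale. The 0 thus does not mean that no gene fell 16-fold in CPM. Without SLR14-2, 2390 of the higher and 2299 of the lower genes were called again. The 19.9% and 19.6% are the background for the gene groups below at the deposited scaling with all libraries. List counts under another setting are read against the totals of that setting. With levels scaled by named reads these were 1199 higher and 5004 lower of the 13410 genes. They were 1841 and 1823 without vehicle-1, 1869 and 1771 without vehicle-2 and 2525 and 2503 without SLR14-2. A fold change with an interval, or a fall given as a fold, is on the log2(CPM + 0.5) scale, which understates the change of genes with low levels.

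**Figure D2:**
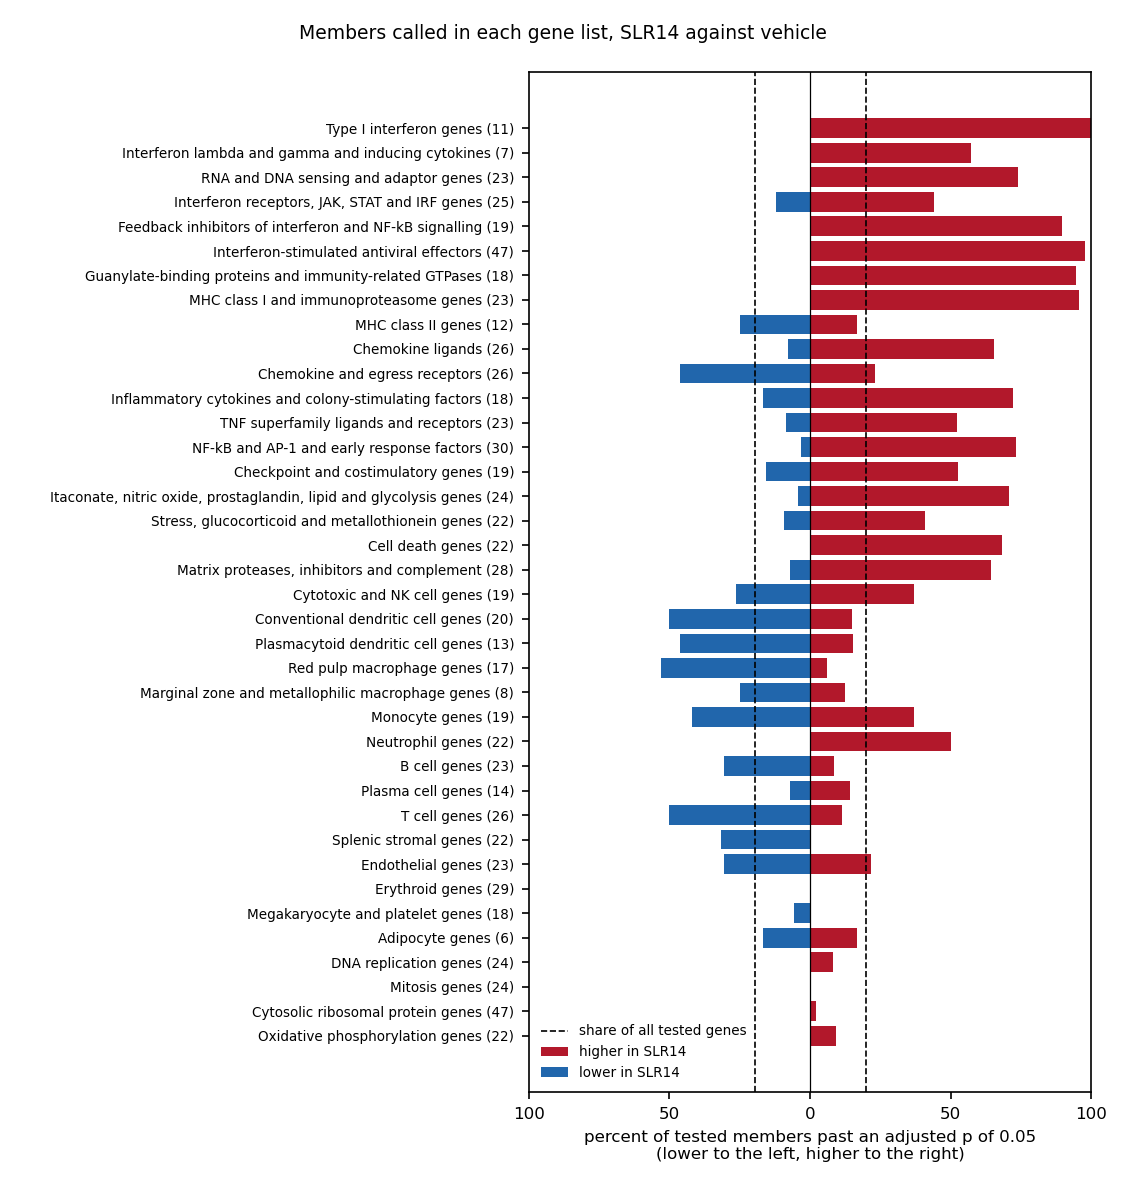
Percent of tested members of each gene list that passed an adjusted p of 0.05 in limma, higher with SLR14 to the right and lower to the left, with the number tested in brackets. Dashed lines mark the shares of all tested genes, 19.9% higher and 19.6% lower.

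Type I interferon genes were among the largest rises, with Ifnb1 the highest log2 change of all tested genes. These genes, clustered on chromosome 4, encode the secreted proteins that warn neighbouring cells of infection. Ifnb1 (chr4:88522025-88522774, minus strand), the gene of interferon beta, was at 235, 169.8 and 241 CPM with SLR14 and at 0 and 0.0596 CPM in vehicle. Pooled over libraries it had 17092 reads against 3, 6224 times the level in vehicle (95% interval from counting, 2129 to 30184). The vehicle reads were all in vehicle-2, with 0 in vehicle-1, and were set over the size of both libraries. The ratio thus rests on very few reads. Ifna4 (chr4:88841861-88842421, plus strand), an interferon alpha gene that answers early to IRF3, was at 118, 81.4 and 104 CPM with SLR14 and had 0 reads in both vehicle libraries. With 3 reads over the vehicle group as the floor, Ifna4 was at least 2934-fold higher. SLR14-2 was the lowest of the SLR14 libraries for both genes, and the groups did not overlap. Ifna2 was at 141, 103 and 134 CPM with SLR14, Ifna5 at 125, 103 and 114 CPM and Ifna9 at 116, 95.6 and 104 CPM, each with 0 vehicle reads.

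All 11 tested type I interferon genes rose. Their median log2 change was 7.16 from the model, or 10.69 when the 9 genes without vehicle reads were set to their bound. The lowest bound was that of Ifna13, 9.95, 9.33 and 5.69 CPM with SLR14 and 0 in vehicle, at least 249.8-fold higher. The interferon alpha genes are close copies, so reads may be shared out between them in a way the counting decided. Ifnk and Ifne, interferons of skin and of the reproductive tract, had no read in any of the 5 libraries, and Ifnz, Ifnl2 and Ifnl3, the last 2 of the interferon lambda family, did not pass the filter. Ifnb1 in naive spleens was at 0, 0.0175 and 0 CPM.

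Interferon gamma and cytokines that induce it rose in part. Ifng, the macrophage-activating interferon of T and NK cells, was at 207, 59.7 and 313 CPM with SLR14 and at 1 and 0.775 CPM in vehicle. Every SLR14 library lay above both vehicle libraries, and SLR14-2 held the least. The log2 change of Ifng was 6.83 ± 0.56 (SE), with an adjusted p of 5.97e-07 in limma. Il27, a subunit gene of the cytokine interleukin 27, rose to 102, 91.1 and 89.3 CPM from 0.763 and 0.596 CPM, and Il15, which sustains NK cells, to 55.6, 46.1 and 70.7 CPM from 4.21 and 4.95 CPM. Of 7 tested genes of this group 4 rose and 0 fell (median log2 change 2.01). Il12a (9.49, 6.34 and 7.28 against 7.48 and 7.86 CPM) and Il18 (29.5, 31.3 and 31.9 against 23.1 and 23.4 CPM), whose products prompt interferon gamma, did not pass.

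Most sensors of foreign nucleic acid rose with SLR14. Ddx58 (chr4:40203773-40239828, minus strand), the gene of RIG-I itself, was at 699.7, 832 and 752 CPM with SLR14 and at 87.2 and 93.7 CPM in vehicle. Ifih1, encoding MDA5, the sensor of long double-stranded RNA, was at 682, 998 and 665 CPM against 23.6 and 26.2 CPM. Both genes lay well apart between the groups, highest in SLR14-2 for both, and the fold change was 8.36 for Ddx58 (95% interval 5.8 to 12.1) and 30.3 for Ifih1 (18.7 to 49.2). Dhx58, the gene of LGP2, the third RIG-I-like receptor, rose by 3.98 ± 0.30 on the log2 scale. Zbp1, a sensor of Z-form nucleic acid, rose from 45.5 and 43.3 to 1423, 984 and 1434 CPM and Mb21d1, which encodes the DNA sensor cGAS, from 5.19 and 5.36 to 50.8, 49.9 and 58.3 CPM.

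Of 23 sensing and adaptor genes 17 rose and 0 fell, with a median log2 change of 2.11. The adaptor gene Mavs was at 19.1, 29.9 and 14.7 CPM with SLR14 and at 24.8 and 28.2 CPM in vehicle, with overlapping groups and no call. Ticam1, the adaptor of Tlr3, was also not called (15.8, 15.4 and 11.3 against 12.8 and 13.5 CPM), while Tlr3, the endosomal receptor of double-stranded RNA, rose from 14.8 and 18.3 to 77.1, 73.5 and 87.2 CPM.

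Downstream of the receptors the kinases and factors moved unequally. Stat2, a transducer of the type I interferon receptor, rose from 94 and 88.8 CPM in vehicle to 723, 879 and 723 CPM with SLR14. Irf7, which amplifies interferon alpha transcription, rose 23.6-fold (16.4 to 34) from 76.9 and 69.8 to 1631, 1994 and 1622 CPM. In both genes each SLR14 library lay above both vehicle libraries by several fold. Irf3, the factor that starts the response, was at 71.3, 55.4 and 73.3 CPM against 69.3 and 61.3 CPM and was not called, its log2 change being 0.02 as deposited and -0.54 with levels scaled by named reads.

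Receptor genes moved less or the other way. Ifnar1, a chain of the type I interferon receptor, was at 78.7, 66.9 and 77.5 CPM against 60.3 and 71.1 CPM, not called. Both chains of the interferon gamma receptor fell: Ifngr1 from 99.5 and 106 to 60.1, 43.7 and 54 CPM (adjusted p = 0.000248, limma) and Ifngr2 from 50.4 and 46.2 to 29.6, 26.7 and 28.5 CPM (adjusted p = 0.00388, limma). Of 25 genes of receptors, JAKs, STATs and IRFs 11 rose and 3 fell. Their median log2 change was 0.37, and -0.19 with levels scaled by named reads, so the group as a whole has no direction that holds under both scalings.

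Most genes that restrain the response rose with it. Usp18, which removes ISG15 and blocks the interferon receptor, was at 657, 992 and 743 CPM with SLR14 and at 15.1 and 15.8 CPM in vehicle. Socs1, an inhibitor of JAK kinases, was at 199, 202 and 242 CPM against 5.4 and 4.81 CPM, and Il1rn, the interleukin 1 receptor antagonist, at 199, 165 and 228 CPM against 2.92 and 3.28 CPM. None of the 3 genes overlapped between the groups, and their log2 changes were 5.62 ± 0.33, 5.26 ± 0.45 and 5.77 ± 0.34. Of 19 feedback genes 17 rose and 0 fell (median 1.91), among them Nfkbia, the inhibitor of NF-kB, from 96.5 and 109.8 to 393, 308 and 434 CPM. Zc3h12a and Tsc22d3 were not called.

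The antiviral effectors that interferon switches on were higher in nearly every case. Ifit2, an RNA-binding antiviral protein gene, was at 1771, 1569 and 1904 CPM with SLR14 and at 24.4 and 27.1 CPM in vehicle. Oasl1, a relative of the oligoadenylate synthetases that limits Irf7 translation, was at 645, 851 and 666 CPM against 16.7 and 16.2 CPM. The SLR14 libraries stayed within 1.5-fold of each other for both genes, and the log2 changes were 6.06 ± 0.36 and 5.40 ± 0.23. Of 47 effectors 46 rose and 0 fell, with a median log2 change of 3.73, and 47 lay wholly above vehicle, as 35.8% of all tested genes did. The member not called was Ifitm2, 61.6, 68.7 and 82.9 CPM against 51.9 and 54.6 CPM.

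Effectors differed in how alike the SLR14 libraries were. Rsad2, encoding viperin, which makes a chain-terminating nucleotide, was at 1537, 5589 and 1839.9 CPM with SLR14 and at 30.5 and 42.5 CPM in vehicle. Its neighbour Cmpk2 was at 607, 1636 and 695 CPM against 19 and 24 CPM, and Ube2l6, the conjugating enzyme for ISG15, at 275, 971 and 295 CPM against 51.1 and 53.6 CPM. SLR14-2 was the highest library in all 3, by more than 2-fold over its mates. It lay highest of the SLR14 libraries for 30 of the 47 effectors (63.8%), beside 41.5% of all tested genes. Isg15 itself, a ubiquitin-like modifier, was at 916, 2010.2 and 1068 CPM against 20.9 and 22 CPM. Without SLR14-2 the log2 change of Rsad2 was 5.53 in place of 6.10, that of Isg15 5.49 in place of 5.83, and 46 effectors rose as before. Ifit1 and Mx1, a GTPase gene, had smaller ranges, 1022, 1562 and 1233 CPM and 1520.0, 1229 and 1603 CPM with SLR14.

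The large GTPases of cell-autonomous defence, which attack the membranes around pathogens, rose as well. Gbp2, a guanylate-binding protein gene, was at 2001, 2571 and 2163 CPM with SLR14 and at 31.5 and 38.7 CPM in vehicle, 63-fold higher (34.8 to 114). Irgm1, which regulates the immunity-related GTPases, was at 1173, 1265 and 1335 CPM against 70.8 and 74.4 CPM, 17.2-fold higher (12.6 to 23.5). In both genes the SLR14 libraries stayed within 1.5-fold of each other and far above vehicle. Of 18 members 17 rose and 0 fell (median 4.31), and 16 rose and 1 fell with levels scaled by named reads. Many of these genes are close copies, so the share of reads each received depends on the counting.

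Antigen presentation split by class. MHC class I shows peptides from inside the cell, and Tap1, a subunit of the peptide transporter, was at 832, 808 and 836 CPM with SLR14 and at 168 and 151 CPM in vehicle. Nlrc5, the transactivator of class I genes, was at 973, 730.0 and 917 CPM against 99.5 and 106 CPM. These 2 genes did not overlap between the groups and rose 5.16-fold and 8.41-fold. H2-T23, a nonclassical class I gene, rose by 1.96 ± 0.24 on the log2 scale, and H2-Q4 by 1.41 ± 0.17. Of 23 class I and immunoproteasome genes 22 rose and 0 fell, with a median log2 change of 1.69. The number fell to 16 when levels were scaled by named reads and to 16 without vehicle-2.

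MHC class II, which shows peptides taken up from outside, moved in few members. H2-Aa was at 913, 626 and 906 CPM with SLR14 and at 1132 and 1043 CPM in vehicle, and H2-Eb1 at 720.0, 509 and 717 CPM against 855 and 765 CPM. SLR14-2 was the lowest library in both, and neither was called. H2-Ob, a subunit gene of the peptide-editing inhibitor H2-O, fell from 287 and 275 to 157, 103 and 174 CPM (adjusted p = 0.00123, limma). Of 12 class II genes 2 rose and 3 fell (median -0.41), 1 fell without SLR14-2, 0 rose and 1 fell without either vehicle library, 1 rose without SLR14-1 or SLR14-3, and 0 rose and 8 fell with levels scaled by named reads. All but 1 of the 12 were lowest in SLR14-2 among the SLR14 libraries, beside 40.9% of all tested genes.

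Chemokine ligands, which guide leukocytes, rose while several of their receptors fell. Cxcl10 (chr5:92346638-92348889, minus strand), a ligand of CXCR3 on T and NK cells, was at 2929.7, 2736 and 3589 CPM with SLR14 and at 19.6 and 24.3 CPM in vehicle. Ccl2, the ligand of CCR2 on monocytes, was at 249.6, 255 and 231 CPM against 1.55 and 2.11 CPM. Neither gene overlapped between groups, with fold changes of 137 (79.2 to 238) and 106 (59.99 to 188). Ccl4, a chemokine of macrophages and activated lymphocytes, rose to 214, 155 and 223 CPM from 1.42 and 1.57 CPM. Cxcl1, which draws neutrophils through CXCR2, was at 60.7, 26.2 and 31.2 CPM against 0.369 and 0.715 CPM, and its relative Cxcl2 at 33.2, 15.5 and 31 CPM against 0.158 and 0.159 CPM. Of 26 ligands 17 rose and 2 fell (median log2 change 2.51), and 0 fell without vehicle-2 and 1 without SLR14-1. The homeostatic ligands Cxcl13, Ccl19 and Ccl21a, which lay out the B and T cell areas, were not called, with Ccl21a at 62.9, 42.7 and 65 CPM against 89.8 and 89.4 CPM.

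Receptors of monocytes, eosinophils and dendritic cells were among those that fell. Cx3cr1 (chr9:119901616-120069879, minus strand), the receptor for fractalkine on patrolling monocytes, was at 0.574, 0.476 and 0.517 CPM with SLR14 and at 12.5 and 15.7 CPM in vehicle. Ccr2 was at 3.56, 3.81 and 3.32 CPM against 39 and 45.6 CPM, and Xcr1, the receptor for XCL1 on cross-presenting dendritic cells, at 1.53, 1.78 and 1.68 CPM against 14.9 and 15.7 CPM. All 3 SLR14 libraries lay close together and far below vehicle for each, with Cx3cr1 14.2-fold, Ccr2 10.5-fold and Xcr1 7.32-fold lower. Ccr3, a receptor of eosinophils and basophils, fell by 3.38 on the log2 scale, and Cxcr3 by 2.19. Ligands of these receptors went the other way: Cx3cl1, fractalkine, rose from 1.29 and 1.41 to 42.8, 34.8 and 30.4 CPM and Xcl1 from 2.76 and 2.5 to 14.1, 9.64 and 14 CPM.

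Of 26 chemokine and egress receptors 6 rose and 12 fell (median -0.73), and 3 rose and 14 fell with levels scaled by named reads. The largest log2 rise of the 26 was that of Ccrl2, an atypical receptor that presents chemerin, from 2.79 and 4.05 to 141, 182 and 173 CPM. Ccr7, which brings lymphocytes and dendritic cells into T cell areas, rose from 70.1 and 66.9 to 220.0, 149 and 174 CPM. Cxcr5, the receptor that brings B cells into follicles, was higher at 289, 176 and 277 CPM against 100.3 and 98.8 CPM, and its call was lost with quantile scaling and with levels scaled by named reads (adjusted p = 0.116 with the latter, limma). Receptors for sphingosine 1-phosphate let lymphocytes leave tissue, and S1pr1 fell from 143 and 143 to 96.4, 77.7 and 87.3 CPM and S1pr5, the form of NK cells, from 2.82 and 3.16 to 0.0765, 0.349 and 0.172 CPM. Cd69, a lymphocyte activation marker that pulls S1PR1 from the cell surface, rose from 20.3 and 19.8 to 543, 322 and 617 CPM.

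**Figure D3:**
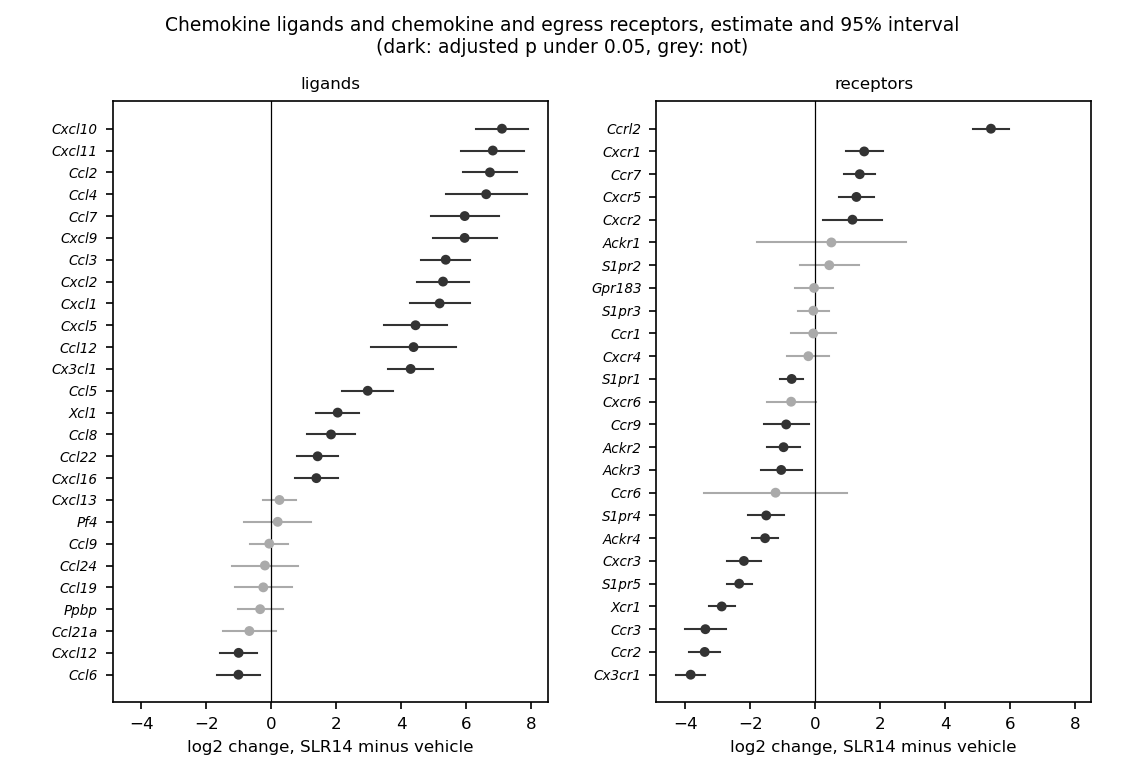
Log2 change between SLR14 and vehicle, with its 95% interval, for chemokine ligands and for chemokine and egress receptors, of which 25 of 26 are drawn. Ligands such as Cxcl10 (7.10) and Ccl2 (6.73) lie to the right, and the receptors Cx3cr1 (-3.83), Ccr2 (-3.40) and Xcr1 (-2.87) to the left.

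Most inflammatory cytokines rose. Il6, an inducer of fever and acute phase proteins, was at 142, 85.4 and 99.9 CPM with SLR14 and at 0.132 and 0.0397 CPM in vehicle. By pooled reads (8713 against 7) its level was 1360 times that in vehicle (interval from counting, 659.7 to 3383). Tnf was at 158, 121 and 153 CPM against 9.69 and 9.61 CPM and Il1b at 155, 70.8 and 215 CPM against 13.4 and 12.5 CPM. The groups did not overlap in these genes, and SLR14-2 held the lowest SLR14 level of all 3. Il33, an alarmin of stromal cells, rose from 8.32 and 8.14 to 97.3, 84.2 and 76.1 CPM and Csf1, the growth factor of macrophages, from 58.4 and 66 to 272, 271 and 225 CPM. Of 18 cytokine and growth factor genes 13 rose and 3 fell (median 2.49). The genes that fell were Il16, Il7 and Flt3l, growth or attraction factors of lymphocytes and dendritic cells, with Flt3l at 10.7, 8.85 and 12.6 CPM against 26.6 and 24 CPM.

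TNF superfamily genes moved in both directions. Tnfsf10, the death ligand TRAIL, rose from 9.13 and 11.3 to 146, 218 and 160.5 CPM, and Tnfsf4, the costimulator OX40 ligand, from 0.369 and 0.199 to 10.2, 12.6 and 7.93 CPM. Of 23 ligands and receptors of this family 12 rose and 2 fell (median 0.68), and 8 rose and 6 fell with levels scaled by named reads. Tnfrsf13b, the receptor TACI of B cells, fell from 85.6 and 80.1 to 34.1, 27.8 and 36.6 CPM. Of 30 NF-kB, AP-1 and early response factors 22 rose and 1 fell (median 1.61). Atf3, a stress-induced repressor, rose from 2.82 and 2.74 to 88.1, 76.3 and 88.5 CPM, Batf2 by 4.74 ± 0.32 on the log2 scale and Myc from 48.9 and 36.8 to 301, 200.0 and 251 CPM. The 1 that fell was Klf2, the factor that keeps lymphocytes quiescent, at 45.2, 46.3 and 41.8 CPM against 116 and 87.2 CPM (adjusted p = 0.0201, limma), a call that was lost without SLR14-3 or without vehicle-1.

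Checkpoint and costimulatory genes rose in 10 of 19 members. Cd274, the gene of PD-L1, was at 626, 663 and 706 CPM with SLR14 and at 38.3 and 43.3 CPM in vehicle, 16.1-fold higher (8.31 to 31.2). Lgals9, a ligand of TIM-3, rose from 70.4 and 77.8 to 609, 1206 and 653 CPM, highest in SLR14-2, whereas Havcr2, which encodes TIM-3, fell from 17.8 and 19.6 to 5.39, 4.35 and 5.6 CPM. Ido1, the enzyme that breaks down tryptophan, rose from 0.105 and 0.0794 to 4.36, 4.38 and 5.26 CPM. The other genes of the list numbered 3 that fell and 6 that were not called (median of the list 1.25). Without SLR14-2, 14 rose, and 8 rose without vehicle-2 (median 0.75) or with levels scaled by named reads (median 0.70). Cd86, a costimulatory ligand of antigen-presenting cells, rose by 2.08 ± 0.23 on the log2 scale.

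Enzymes of macrophage activation gave some of the largest changes. Irg1, which makes the antimicrobial metabolite itaconate, was at 189, 135 and 317 CPM with SLR14 and at 0.105 and 0.199 CPM in vehicle. Ptgs2, cyclooxygenase 2, was at 49.7, 24.2 and 32 CPM against 0.158 and 0.238 CPM and Ch25h, which makes the antiviral oxysterol 25-hydroxycholesterol, at 28.6, 21.6 and 15.7 CPM against 1.92 and 1.85 CPM. Irg1 was lowest in SLR14-2 and Ptgs2 highest in SLR14-1, with no overlap between the groups in any of the 3. Hif1a rose from 73.4 and 74.9 to 284, 214 and 243 CPM and its target Hk2, a hexokinase, from 11.3 and 11.5 to 95.9, 63.5 and 80.3 CPM. Of 24 metabolic genes 17 rose and 1 fell (median 0.93), with 9 higher and 4 lower when levels were scaled by named reads and 10 higher and 0 lower without vehicle-2. Without SLR14-2, 2 were lower.

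Stress and death genes moved in part. Mt2, a metallothionein that binds zinc, was at 201, 245 and 247 CPM with SLR14 and at 3.05 and 2.84 CPM in vehicle. Cdkn1a, the cell cycle inhibitor p21, was at 148, 88 and 142 CPM against 4.58 and 5.2 CPM, and Hspa1a, an inducible heat shock chaperone, at 22.6, 14.2 and 26.5 CPM against 0.842 and 0.794 CPM. The groups did not overlap in these genes. Of 22 stress genes 9 rose and 2 fell (median 0.94), and 1 fell without SLR14-2 and 0 without either vehicle library. Of 22 cell death genes 15 rose and 0 fell (median 1.23), including Mlkl, the executor of necroptosis, from 5.03 and 5.56 to 96.3, 160.3 and 95.8 CPM, and Casp4, the sensor caspase of cytosolic endotoxin, from 16.1 and 19.4 to 152, 126 and 172 CPM. The number of death genes that rose was 7 with levels scaled by named reads and 10 without vehicle-2.

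Many matrix protease and complement genes rose. Mmp13, a collagenase, was at 319, 360.1 and 247 CPM with SLR14 and at 1.32 and 0.874 CPM in vehicle, 193-fold higher (87 to 429.9). Adamts4, an enzyme that splits cartilage proteoglycans, rose from 0.553 and 0.596 to 90.1, 71.7 and 58.8 CPM. Serpina3f, a serine protease inhibitor gene, rose by 5.76 ± 0.29 on the log2 scale with the SLR14 libraries close together (406, 371 and 393 CPM). Of 28 matrix and complement genes 18 rose and 2 fell (median 1.08), 12 rose and 6 fell with levels scaled by named reads, and 1 fell without either vehicle library.

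Cell type markers were described next, as lists that overlap in places with the groups above. Cytotoxic and NK cell genes moved both ways. Gzmb, granzyme B, was at 123, 73.6 and 131 CPM with SLR14 and at 2.47 and 3.32 CPM in vehicle, while Klrd1, the CD94 receptor chain of NK cells, was at 4.29, 2.28 and 4.52 CPM against 23.4 and 23.6 CPM. SLR14-2 was the lowest of all SLR14 libraries for both, and neither gene overlapped between groups. Cd244, the receptor 2B4, fell 5.36-fold, and Klrb1c, the NK1.1 antigen, from 11.5 and 12.5 to 3.14, 3.05 and 1.94 CPM. Eomes, a factor of NK and memory T cells, rose from 9.34 and 7.9 to 50.01, 34.9 and 49.3 CPM. Of 19 genes 7 rose and 5 fell. The median was 0.12, and it was 0.41 without SLR14-2, 0.36 without vehicle-2, -0.02 without SLR14-1 and -0.40 with levels scaled by named reads. Prf1, perforin, was not called (9.49, 8.31 and 7.63 against 7.71 and 8.46 CPM).

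Of the conventional dendritic cell genes 10 of 20 were lower. Flt3, the receptor that maintains these cells, was at 9.07, 6.98 and 7.84 CPM with SLR14 and at 29.7 and 29.8 CPM in vehicle. Itgax, which encodes CD11c, was at 16.9, 15.7 and 17.9 CPM against 65.9 and 66.7 CPM, and Naaa, an enzyme found in cross-presenting cells, at 10.3, 9.9 and 11.5 CPM against 53.8 and 56.4 CPM. The SLR14 libraries lay within a narrow range, below both vehicle libraries. Of 20 members 3 rose and 10 fell (median -0.68), with the same counts without SLR14-2. The 3 that rose were Irf8, Tlr3 and Ly75, and Irf8, the lineage factor that interferon gamma also induces, went from 204 and 189 to 955, 695 and 836 CPM. The factors Batf3 and Zbtb46 were not called (8.8, 7.52 and 12.5 and 17.9, 19.6 and 15.9 CPM with SLR14 against 7.77 and 6.43 and 23.2 and 23 CPM). Of 13 plasmacytoid dendritic cell genes 2 rose and 6 fell, and 4 fell without SLR14-1, SLR14-2 or vehicle-1 and 2 without vehicle-2. Lair1, an inhibitory collagen receptor on that list, fell 3.73-fold, and Bst2, tetherin, which is also an effector above, rose from 39.5 and 38.1 to 386, 359 and 400.1 CPM.

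Red pulp macrophages recycle iron from old red cells, and several of their genes fell. Slc40a1 (chr1:45908068-45926523, minus strand), the iron exporter ferroportin, was at 15.5, 28.1 and 23.4 CPM with SLR14 and at 213 and 290.1 CPM in vehicle. Mrc1, the mannose receptor, was at 15.4, 23.7 and 18.4 CPM against 48.4 and 63.3 CPM and Cd5l, a secreted survival protein of these cells, at 16.1, 28.9 and 20.4 CPM against 68.4 and 69.5 CPM. SLR14-2 was the highest SLR14 library in all 3 and still lay below vehicle. Of 17 genes 1 rose and 9 fell (median -0.80), with the same counts without SLR14-2. Spic, the lineage factor, was not called (96.6, 101 and 99.3 against 66.3 and 75.4 CPM), and neither was Vcam1. Of 8 marginal zone macrophage genes 1 rose and 2 fell, with 1 lower without SLR14-1 or vehicle-2, 3 lower without SLR14-2 and 5 lower with levels scaled by named reads. Cd209a, a lectin gene, fell from 6.42 and 6.36 to 1.42, 0.571 and 1.77 CPM, and Marco, a scavenger receptor, was at 37.2, 62 and 52.9 CPM against 54.1 and 79.7 CPM, not called.

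Monocyte genes split as well. Csf1r, the receptor for the growth factor Csf1, fell from 204 and 251 to 74.2, 105 and 83.6 CPM and Treml4 from 40.2 and 47.4 to 5.47, 11 and 9.78 CPM, along with Ccr2 and Cx3cr1. Fcgr4, an activating Fc receptor, rose from 11 and 11.6 to 112, 105 and 123 CPM and Fcgr1 from 9.24 and 9.24 to 37.7, 42.3 and 49.1 CPM. Vcan, versican, had a log2 rise of 3.45 ± 0.29. Of 19 genes 7 rose and 8 fell (median -0.31), and 7 rose and 9 fell without SLR14-2 (median -0.76). Without SLR14-3 the median was 0.10.

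Neutrophil genes rose in part. Hdc, which makes histamine, was at 80.5, 58.6 and 120.1 CPM with SLR14 and at 2.9 and 2.72 CPM in vehicle. Clec4e, the lectin Mincle, was at 51.1, 35.6 and 85.5 CPM against 2.42 and 2.7 CPM and Il1r2, the decoy receptor of interleukin 1, at 19.7, 15.4 and 31.9 CPM against 1.53 and 1.07 CPM. SLR14-3 was the highest library in each, SLR14-2 the lowest of the SLR14 libraries, and the groups did not overlap. Of 22 genes 11 rose and 0 fell (median 1.16), with 12 higher without SLR14-2 (median 1.59) and 10 without SLR14-3 (median 0.86). The granule genes made in neutrophil precursors were among those not called. Mpo, myeloperoxidase, was at 8.34, 21.5 and 3.06 CPM against 9.19 and 8.36 CPM and Camp, cathelicidin, at 10.1, 24.6 and 4.74 CPM against 8.84 and 9.69 CPM, both highest in SLR14-2.

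B cell genes changed in few members. Fcer2a, the low-affinity IgE receptor CD23 of follicular B cells, was at 16.8, 14.7 and 16.5 CPM with SLR14 and at 212 and 196 CPM in vehicle, 12.4-fold lower. Cr2, complement receptor 2, fell from 259 and 279 to 93.7, 55.2 and 69.3 CPM and Blk, a Src family kinase, from 153 and 154 to 69.5, 54.5 and 69.5 CPM. Ms4a1, which encodes CD20, and Cd79a, a chain of the B cell receptor, were not called (423, 305 and 460.1 and 409, 297 and 409 CPM with SLR14 against 341 and 368 and 499 and 483 CPM). Of 23 genes 2 rose and 7 fell (median -0.32), a share of lower genes of 30.4% beside 19.6% of all tested genes. The count of genes that fell was 5 without SLR14-2, 4 without vehicle-1 and 13 with levels scaled by named reads. Of 14 plasma cell genes 2 rose and 1 fell (median -0.31). Of these 14, 1 rose without SLR14-1 or either vehicle library, 2 fell without vehicle-2, and 0 rose and 3 fell with levels scaled by named reads. The median of the plasma cell list was 0.07 without vehicle-1. The gene that fell at the deposited scaling was Sdc1, syndecan 1, from 11.8 and 8.6 to 3.06, 2.92 and 2.46 CPM.

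T cell genes fell in 13 of 26 members and rose in 3 (median -0.73). Thy1, a surface glycoprotein of T cells that was not on the list, was at 5.74, 4.73 and 8.36 CPM with SLR14 and at 60.9 and 53.6 CPM in vehicle. Cd5, which dampens T cell receptor signals, was at 4.48, 3.17 and 3.53 CPM against 31.8 and 27.4 CPM and Cd3g, a receptor chain, at 9.99, 5.93 and 11.8 CPM against 44.5 and 36.7 CPM. The groups did not overlap, and each gene was called again without SLR14-2 (adjusted p of 8.53e-07 for Thy1, 7.45e-07 for Cd5 and 0.000192 for Cd3g, limma). Il2ra, the interleukin 2 receptor alpha chain, rose from 8.74 and 8.38 to 76.8, 40.4 and 77.6 CPM. Lck, Cd2 and Cd8a were not called, with Lck at 84.6, 74.1 and 95.4 CPM against 88.3 and 81.5 CPM. All 26 genes were lowest in SLR14-2 among the SLR14 libraries. Without that library 9 fell and 4 rose (median -0.48), and without vehicle-1 7 fell and 3 rose.

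Several transcription factor genes of stroma and endothelium fell. Tlx1 (chr19:45150680-45156943, plus strand), the homeobox gene needed to form a spleen, was at 2.18, 3.2 and 1.94 CPM with SLR14 and at 24.6 and 27.1 CPM in vehicle. Tcf21, a factor of mesenchymal cells, was at 1.87, 3.14 and 2.84 CPM against 23.6 and 32.8 CPM and Nr2f2, a nuclear receptor, at 5.74, 6.47 and 5.43 CPM against 26.3 and 27.9 CPM. SLR14-2 was the highest SLR14 library for all 3 and lay below vehicle. The structural genes Col1a2, Col3a1 and Acta2 were not called, with Acta2, smooth muscle actin, at 109.8, 133 and 101 CPM against 103 and 116 CPM. Of 22 stromal genes 0 rose and 7 fell (median -0.21). Without SLR14-2, 8 fell (median -0.49), and 11 fell with levels scaled by named reads (median -0.75).

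In endothelium, Sox17 and Sox18, factors of vessel identity, fell from 6.32 and 6.83 to 0.421, 0.825 and 0.991 CPM and from 10.6 and 9.51 to 0.842, 2.44 and 1.51 CPM. The adhesion genes Sele, E-selectin, and Icam1 rose from 0.342 and 0.397 to 4.97, 4.5 and 4.4 CPM and from 68.3 and 73.7 to 417, 359 and 427 CPM. Both pairs were free of overlap between the groups. Of 23 endothelial genes 5 rose and 7 fell (median -0.19), and 4 rose without SLR14-2 and 3 without either vehicle library. With levels scaled by named reads 2 rose and 11 fell (median -0.75). Pecam1, present on all endothelium, was not called (112, 81.8 and 118 against 116 and 118 CPM).

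Few genes of the erythroid, cell cycle and housekeeping lists were called. Of 29 erythroid genes 0 rose and 0 fell, with a median log2 change of 1.16 that was -0.36 without SLR14-2. Of 24 mitosis genes 0 were called (median 0.59, and -0.29 without SLR14-2), and of 24 DNA replication genes 2 rose and 0 fell. The erythroid and mitosis lists spread widely within groups, which by itself makes calls fewer. Mean log2 levels of the erythroid list were 4.62, 8.77 and 4.75 with SLR14 and 3.44, 9.36 and 8.20 with poly(I:C). Those of the mitosis list were 3.62, 6.37 and 3.58 and 3.40, 6.98 and 5.74. The lack of calls in these 2 lists thus does not show that their genes were unchanged. Of 47 cytosolic ribosomal protein genes 1 rose and 0 fell, with a median log2 change of 0.30 that turned to -0.24 with levels scaled by named reads and -0.64 with quantile scaling, under which 29 fell. Of 22 oxidative phosphorylation genes 2 rose and 0 fell (median 0.25, and -0.31 with levels scaled by named reads, under which 1 rose and 2 fell). Of 18 platelet genes 0 rose and 1 fell (median 0.06, -0.12 without SLR14-2 and -0.42 with levels scaled by named reads). Of 6 adipocyte genes 1 rose and 1 fell (median 0.16, -1.03 without SLR14-2 and -0.12 with levels scaled by named reads), and the 1 pancreas gene tested was not called. Leaving out SLR14-2, vehicle-1 or vehicle-2 left 0 ribosomal and 0 platelet calls and 1 call each among replication and oxidative phosphorylation genes, and 4 replication genes rose without SLR14-3. The adipocyte gene that fell lost its call without SLR14-1, SLR14-3 or either vehicle library.

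**Figure D4:**
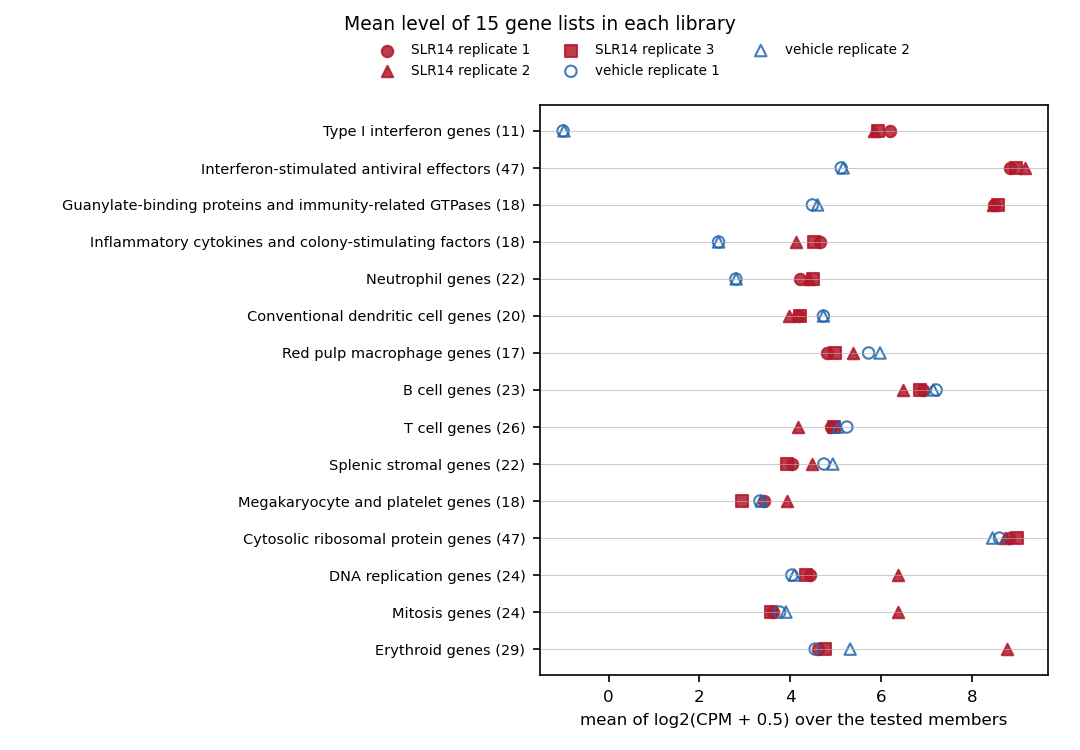
Mean log2(CPM + 0.5) over the tested members of 15 gene lists in each SLR14 and vehicle library. The interferon-stimulated effectors lie at 8.82, 9.15 and 8.96 with SLR14 against 5.12 and 5.16 in vehicle, and the erythroid mean is 8.77 in SLR14-2 against 4.62 and 4.75 in the other SLR14 libraries.

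SLR14 was then compared with poly(I:C) in the same fit, to see where the responses to the RNAs differed. The injection text names only stem-loop RNAs, so the dose and time of poly(I:C) are not stated. Against poly(I:C) 172 genes (1.28%) were called. This number was 30 without SLR14-1, 72 without poly(I:C) replicate 2, 57 without replicate 3 and 0 when only SLR14 and poly(I:C) libraries entered the fit. Type I interferon genes were higher with SLR14. Ifnb1, given above for SLR14, was at 76.9, 45.6 and 55.2 CPM in the poly(I:C) libraries, and its difference was 1.87 on the log2 scale (95% interval 1.37 to 2.38, adjusted p = 0.00172, limma). Ifna4 was at 44, 21.1 and 26.1 CPM with poly(I:C), all below the SLR14 libraries, with a log2 difference of 1.77. All 11 type I interferon genes were called higher with SLR14 (median 1.93), where 90 of all genes (0.671%) were called higher and 82 (0.611%) lower. All 11 lay above 0 in every alternative that was run. In the fit of only those groups none of the 11 was called (highest adjusted p 0.193, limma), 8 were called by edgeR on whole reads, and 10 without SLR14-1.

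None of the 47 listed antiviral effectors was called in this test, in which 1.28% of all tested genes were. For these 47 the median difference was -0.05 (log2), and 33 of the intervals lay within a 2-fold change either way. Of all 13410 tested genes 10137 had such an interval. Ifit2 was at 2434, 1434 and 1714 CPM with poly(I:C) against 1771, 1569 and 1904 CPM with SLR14, a log2 difference of -0.06 (-0.76 to 0.64). Ifit2 levels in the 2 groups overlapped. Of the GTPases of cell-autonomous defence 0 of 18 were called, and of the chemokine ligands 0 of 26. At the share over all genes hardly any call would fall in lists of these sizes, so these counts do not set the lists apart.

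Hspa1a and Tnfsf4 were higher with SLR14 as well. Hspa1a was at 22.6, 14.2 and 26.5 CPM with SLR14 and at 3.25, 1.56 and 2.81 CPM with poly(I:C), a log2 difference of 2.83 (2.11 to 3.55, adjusted p = 0.0013, limma). Its near-identical neighbour Hspa1b was at 34.8, 20.1 and 33.4 CPM against 8.33, 3.9 and 6.73 CPM, and reads may be shared between them. The call of Hspa1b (adjusted p = 0.0176, limma) was lost without SLR14-1 or SLR14-3 without poly(I:C) replicate 2 or 3, and with levels scaled by named reads (adjusted p = 0.0531, limma). When only these groups entered the fit it was lost as well (adjusted p = 0.134, limma). Of 22 stress genes 4 were called higher with SLR14 and 0 lower. Tnfsf4 differed by 1.94 (1.43 to 2.45), with 2.96, 1.46 and 2.57 CPM after poly(I:C). In these genes every SLR14 library lay above every poly(I:C) library.

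Among neutrophil genes, Mmp9 was lower with SLR14 than with poly(I:C). Mmp9, a gelatinase of neutrophil granules, was at 5.62, 5.74 and 7.15 CPM with SLR14 and at 35.7, 19.7 and 20.3 CPM with poly(I:C), a log2 difference of -1.90 (-2.45 to -1.35, adjusted p = 0.0025, limma). The groups did not overlap. Of 22 neutrophil genes 3 were called lower and 0 higher, and all 22 lay below 0 (median -0.60). The other 2, Mmp8 (adjusted p = 0.0397, limma) and Cd177 (adjusted p = 0.0432, limma), lost the call without SLR14-1, without SLR14-2 or without any 1 poly(I:C) library, and Cd177 also without SLR14-3. Both were also lost with edgeR, with median-of-ratios, quantile or named-read scaling, with no filter, and with the replicate block (adjusted p = 0.0587 for Mmp8 and 0.065 for Cd177, limma). Plagl1, a zinc finger factor, was at 4.44, 3.39 and 3.32 CPM with SLR14 and at 21.5, 14.6 and 19.98 CPM with poly(I:C), a log2 difference of -2.18. None of these genes was called when only those groups entered the fit. The erythroid list also differed between libraries of poly(I:C), with mean log2 levels of 3.44, 9.36 and 8.20, and the mitosis list stood at 3.40, 6.98 and 5.74. Their part in these differences was not tested.

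**Figure D5:**
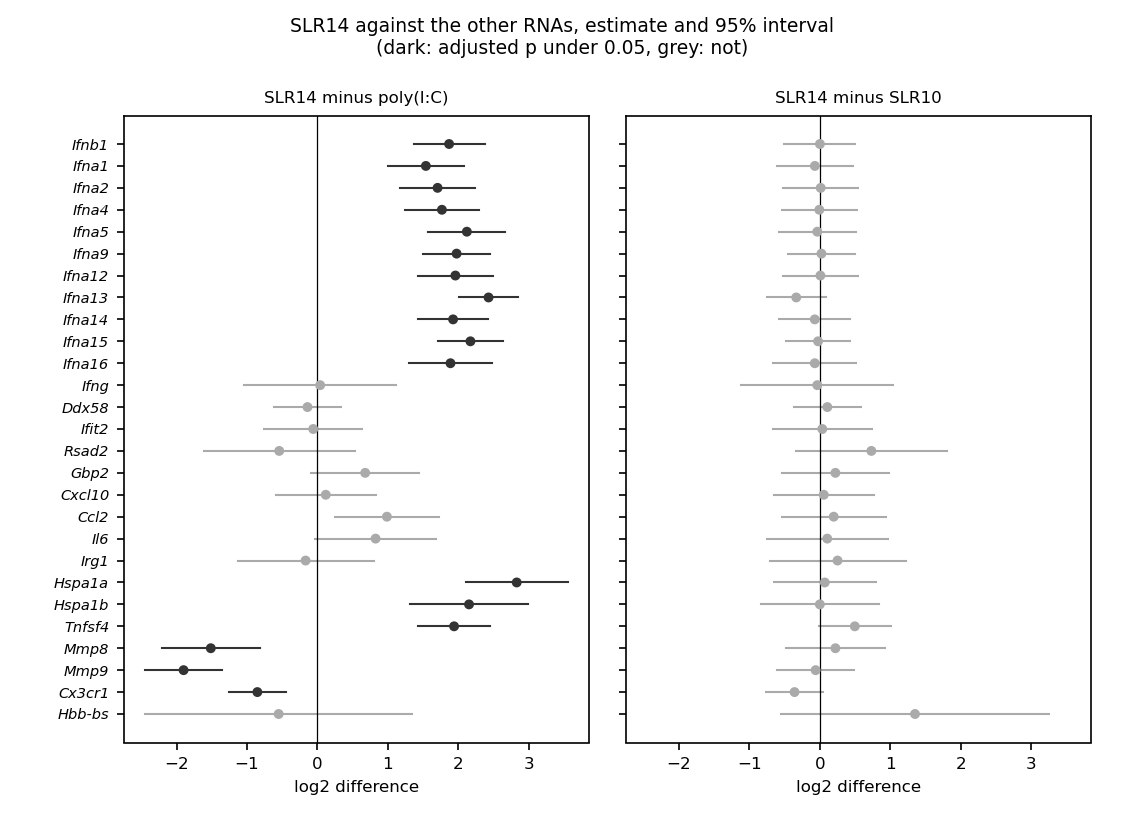
Log2 difference, with its 95% interval, of SLR14 minus poly(I:C) and of SLR14 minus SLR10 for selected genes. Ifnb1 lies at 1.87 against poly(I:C) and at 0.00 against SLR10, and Ifit2 lies at -0.06 and 0.04.

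Against SLR10, which has a shorter stem and stands under the same injection text, 0 genes passed in limma (0% of those tested). At an unadjusted p under 0.05 there were 75 genes. With no difference, a share of 0.05 of the 13410 genes would lie there, and 75 is well below that. The p-values may thus run high, so 0 calls do not show that the RNAs act alike. edgeR called 0 and DESeq2 1, Zfp36l2, a gene of a protein that promotes mRNA decay, with a log2 difference of -0.98 in DESeq2, lower with SLR14. The interval of the difference lay within a 2-fold change either way for 84.2% of genes, and for all 11 type I interferon genes. Ifnb1 was at 249.8, 158 and 243 CPM with SLR10, and the difference was 0.00 (95% interval -0.50 to 0.51). Ifit2 was at 1745, 1707 and 1648 CPM (0.04, -0.66 to 0.74), and Cx3cr1 at 0.953, 0.845 and 0.648 CPM (-0.36, -0.76 to 0.05). The intervals of the 29 erythroid genes were wider, with 0 within 2-fold and a median difference of 1.55. Their mean log2 levels were 4.69, 4.48 and 4.33 with SLR10 against 4.62, 8.77 and 4.75 with SLR14, high in SLR14-2 alone. Of the 47 antiviral effectors 37 and of the 23 B cell genes all 23 had intervals within a 2-fold change. All 23 B cell genes (median -0.24) and all 26 T cell genes (median -0.20) lay below 0, as 7125 of all 13410 genes did. Among the SLR14 libraries, SLR14-2 was the lowest for 20 of those B cell genes and for all of those T cell genes.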

How the data were processed

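RNA was measured in 17 spleen libraries, 5 of which form this comparison. Per the labels' protocols, total RNA was taken with Trizol from spleens held in RNAlater and made into stranded mRNA libraries. Per the submitters' processing notes the tools, whose roles are not stated, were edgeR, HTSeq, SAMtools 1.4, FastQC, TopHat and TopHat2 2.0.6, and the genome builds mm10 and GRCm38. Strand setting and annotation version are not given in the sources used here, so overlapping and antisense genes may share reads. The authors deposited normalised signal values, reads per gene over an edgeR library size, which the deposit calls CPM. Of the 39184 lines of the table those dropped were 5 with an empty name, 699 with the name #N/D, 27 with a date in place of a symbol, and all but the line with the highest total of 87 names that occur more than once (113 lines). Each value is a whole multiple of the value of 1 read (99.99% to 100.0% of values within 0.01 reads), so whole reads were recovered for count tests.

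One limma 3.58.1 model (R 4.3.3, trend on mean level, empirical Bayes moderation) was fitted to log2(CPM + 0.5) of the 17 libraries together. Benjamini-Hochberg adjustment ran over all 13410 genes, with a threshold of 0.05. Intervals are 95% intervals, and the added 0.5 draws the changes of low genes towards 0. The script was tested on simulated data. Positions come from GENCODE vM21 (GRCm38).

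The members and gene lists were chosen with earlier results of these data known. Genes named are the 20 largest rises and 20 largest falls (called, mean of at least 5 CPM, no overlap), the 10 largest gains and losses of CPM, up to 6 list members with the smallest adjusted p, up to 3 against the list's direction and up to 3 with the highest CPM. The 12 genes farthest above and below in SLR14-2, the 10 highest without vehicle reads and the 8 largest differences from each other RNA were added. Chosen after their values were seen were Isg15, Ifit1, Mx1, Cmpk2, Ube2l6, Ifitm2, Il12a, Mavs, Ticam1, Irf3, Ifnar1, Zc3h12a, Tsc22d3, Cxcl1, Cxcl13, Ccl19, Ccl21a, Xcl1, Cxcr3, Prf1, Batf3, Zbtb46, Spic, Mpo, Camp, Cd2, Cd8a, Col1a2, Col3a1, Zfp36l2 and the interferon genes without reads or under the filter. Some genes are not reported here.

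The alternatives comprised pseudocounts (0.1 and 2), filters (none and 5 CPM), median-of-ratios and quantile scaling, only the groups compared, naive libraries as or with the control, a replicate block, edgeR 4.0.16 and DESeq2 1.42.0 on whole reads and each replicate left out. Scaling by named reads was added after the data were seen. The naive column is spelt without the diaeresis of its label and was matched by that name. CPM had been assumed when the tests were planned, and the test is the same for these signal values.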

Additional observations from a re-analysis of the deposited data

How the results depend on the processing

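SLR14 against vehicle kept its count within 1.5 times under every alternative run (3640 to 6537 genes, 3640 to 5028 with a library left out). The balance of 2669 higher and 2627 lower turned to more lower than higher calls with median-of-ratios scaling (2565 and 2729), quantile scaling (2219 and 2971), edgeR (2570 and 2614), DESeq2 (2850 and 2893), no filter (2861 and 3246), without SLR14-1 (2267 and 2286) and with named-read scaling (1199 and 5004), which was added after the data were seen. Irf3, not called, turned from 0.02 to -0.54 (log2) under that scaling. Members of the lists called numbered 430, and 365 to 477 across alternatives. The replicate block gave 5437 genes and 437 members, and the samples share only a number. Residual correlations were 0.26 and 0.27 for the 2 pairs, and 0.22 for SLR14-3 with vehicle-1, which share no number. The residuals of 2 vehicle libraries mirror each other, so these values cannot show a pairing.

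SLR14 against poly(I:C) gave 172 genes, a number that moved with the processing. It was 99 with quantile scaling, 41 with named-read scaling, 0 with only the groups compared, 112 with edgeR and 390 with DESeq2. Leaving out a library gave 30 to 129, lowest without SLR14-1, with 99 without SLR14-3, 112 without poly(I:C) replicate 1, 72 without replicate 2 and 57 without replicate 3. The replicate block gave 151. Against SLR10, DESeq2 gave 1. The causes of these changes were not tested.

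The 2 vehicle libraries limit every comparison, and genes near 0.1 CPM rest on few reads.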

Other observations

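Outside the lists, large falls belonged to transporters, channels and factors of different roles. Kcnj10, an inward rectifier potassium channel gene, was at 0.344, 1.52 and 0.388 CPM with SLR14 and at 16.6 and 19 CPM in vehicle, a fall of 15.9-fold. Arvcf, a catenin gene of cell junctions, was at 0.689, 1.33 and 0.862 CPM against 20.3 and 21.8 CPM, and Marveld1 at 3.79, 3.77 and 3.4 CPM against 39 and 35 CPM. The SLR14 libraries lay below both vehicle libraries in all of these, with SLR14-2 the highest of them for Kcnj10 and Arvcf. Spns2, the transporter that exports sphingosine 1-phosphate from cells, fell from 20.9 and 21.7 to 2.26, 2.28 and 1.68 CPM (adjusted p = 8.64e-08, limma). Tbxa2r, the thromboxane receptor gene, fell from 13.3 and 11.3 to 1.3, 0.888 and 1.34 CPM.

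Also outside the lists, Rnf213, a giant ubiquitin ligase with antiviral activity, rose from 185 and 263 to 4715, 3991 and 4049 CPM, and Helz2, a helicase gene, from 226 and 189 to 2711, 2284 and 2240.3 CPM. Both lay far apart between the groups, and all 3 SLR14 libraries agreed within 1.5-fold. Ptx3, a secreted pattern recognition protein, had 0 reads in vehicle and was at 3.6, 5.08 and 3.75 CPM with SLR14, at least 124-fold higher. The noncoding RNA Neat1, which scaffolds nuclear paraspeckles, fell from 348 and 322 to 141, 121 and 118 CPM (adjusted p = 5.81e-06, limma).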
